A study of Mus musculus with 15 samples.

Results

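The tumour models 2225L and 2208L were compared, both of them mammary tumours of p53-NULL Balbc mice, with 2 samples of 2225L and 8 of 2208L among the 15 samples of the series. Members were chosen by sample title. The replicates of 2225L are a sample with the prefix CP (replicate 1, marked T-Vivo in its title) and a sample with the prefix ROSEN (replicate 2). Of the 2208L samples, replicate 1 carries the prefix ROSEN, replicates 2 to 5 are marked PBS and replicates 6 to 8 are marked 3day nt, and these 7 carry the prefix CP. All groups share the p53-NULL genotype and the strain, and the labels name no drug for any of these 10 samples and give no age. The other models of the series, 2151R with 4 samples and T11 with 1, entered the estimate of spread, and 2151R is set beside both models at the gene runs of chromosomes 6 and 12. Nothing in the labels says that the samples of a model came from separate animals, so p-values measure the spread between these samples only.

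The mammary gland is lined by an inner luminal layer, which is marked by keratins 8, 18 and 19, responds to hormones and makes milk, and an outer basal layer, which is marked by keratins 5 and 14 and the transcription factor p63. Stratified squamous epithelium, as in the epidermis, also starts from a basal layer with these keratins and p63 and adds differentiation genes in the layers above. Germ line genes are held silent in most adult tissues, largely by DNA methylation, and some of them are switched on in tumours. Type I and type II interferons act through STAT and IRF factors on a large set of antiviral genes, and neutrophils and macrophages are the myeloid cells that infiltrate mammary tumours.

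Expression was given as a log2 value for each of 17271 genes, centred gene by gene on a reference that is not stated. A value of 0 is therefore the reference level of that gene and not absence, and levels of different genes cannot be ranked. The table holds no counts, so sequencing depth is unknown. The genotype check was limited for the same reason. Trp53, which encodes p53, read 1.63 and -0.18 in 2225L and from -0.29 to 0.16 in 2208L, and the difference of 0.82 (SE 0.32) did not pass the test (limma adjusted p = 0.069). A centred value does not show whether the gene is expressed.

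Of 17271 genes, 2693 (15.6%) were higher and 2994 (17.3%) lower in 2225L than in 2208L (limma, p adjusted by Benjamini-Hochberg over all genes, called under 0.05). Both 2225L samples lay above all 8 of 2208L at 2711 genes (15.7%) and below all 8 at 2760 (16%). The genes kept are those that met both criteria, 2331 (13.5%) higher and 2501 (14.5%) lower. A difference of at least 1 log2 unit was found at 1827 of the genes called higher and 2168 of those called lower. The median difference over all genes was -0.044. With a weight estimated for each sample, the 2225L samples took the lowest weights (0.282 each, against 0.364 to 2.85 for 2208L) and the counts fell to 958 higher and 1200 lower.

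Kept genes were ranked by difference, leaving out predicted genes (Gm, Rik and similar symbols) and genes where all samples of a model share a value. The 10 largest increases were at Rhox5, Ren1, Brinp2, Cldn6, Wnt6, Wfdc12, Krt5, Jakmip2, Prss33 and Bcas1, in this order, with differences from 12.14 down to 9.0. The homeobox gene Rhox5 is described with the germ line genes below. Ren1, which encodes the protease renin, read 13.11 and 11.60 in 2225L and from -1.11 to 2.88 in 2208L. Cldn6, a claudin of embryonic epithelium, read 7.45 and 8.12 against -4.32 to -0.51. Wnt6, a secreted Wnt ligand, read 9.38 and 8.56 against -2.50 to 0.06. At Brinp2, 5 of the 8 samples of 2208L shared an exact value, as did 4 at Ren1 and 2 at Cldn6, and such repeated values are not read as measured levels. The 10 largest decreases were at Cftr, Alkal2, Fezf1, Igf2bp1, Tmem229a, Rasef, Timd2, Aass, Ptprz1 and Dmrt3, from -10.19 to -7.18. Alkal2, a ligand of the receptor kinase ALK, read 0.00 and 2.92 in 2225L and from 11.03 to 12.08 in 2208L. Igf2bp1, an RNA-binding protein of fetal tissues, read -1.92 and 0.84 against 8.70 to 9.89. Kept genes are separated by definition, so the lack of overlap at these 20 genes is not a further result. Cftr, Fezf1, Tmem229a, Aass and Ptprz1 are neighbours on chromosome 6. The call was lost at Aass with sample weights (limma adjusted p = 0.0519) and at Alkal2 and Fezf1 when the prior variance followed the mean value, with differences of -10.16 at both.

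The basal genes were higher in 2225L. Of 22 basal keratin and regulator genes in the table, 13 rose (59.1%, against 15.6% of all genes), 0 fell and 9 did not pass the test, and the median difference was 2.47. Krt5, the keratin of basal cells (chr15:101707069-101712905, GRCm38.p6), read 7.47 and 8.12 in 2225L, and 2208L ran from -4.59 to 2.48 with a median of -2.53. The difference was 9.81 (SE 1.43, limma adjusted p = 0.000212), with 2 of the 2208L samples at a shared exact value. Krt14, its partner keratin, read 6.63 and 5.84 against a range of -0.43 to 2.58 and a median of 2.07. Trp63, which encodes p63, read 5.55 and 4.08 against 0.00 to 1.53, with a median of 1.0 (difference 3.82, SE 0.40, limma adjusted p = 1.59e-05). At all 3 genes both samples of 2225L stood above every sample of 2208L, and replicate 1 was the higher of the pair at Krt14 and Trp63.

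Genes known from the basal cells of mammary gland and skin followed the keratins. Trim29, a protein of basal epithelium, read 8.20 and 7.37 in 2225L and at most 1.71 in 2208L (median -0.21, difference 7.74). The protocadherin Fat2, a p63 target, read 5.88 and 4.03 against a highest value of 0.42 (difference 6.64). Sostdc1, a secreted inhibitor of Wnt and BMP signals, differed by 8.88, and Irx4, a homeobox factor, by 7.86, where 4 of the 2208L samples held a shared exact value. Id4, an inhibitor of helix-loop-helix factors in mammary basal cells, differed by 3.54, the Notch ligand Jag2 by 3.01 and the transcription factor Snai2 by 2.90. Krt17, a keratin of basal and injured epithelium, differed by 2.68, which became 1.5 without 2225L replicate 1 and was not called with sample weights (limma adjusted p = 0.0532). Not every basal gene separated the models. Krt15 read 1.47 and 1.07 against 0.00 to 1.69, and Sox10 read 1.0 and 0.67 against 0.00 to 0.87. Krt6a (difference 1.5, limma adjusted p = 0.341) and the receptor Egfr (1.45, adjusted p = 0.108) also did not pass. The lowest difference among the 22 basal keratin and regulator genes was -3.09, at a gene that did not pass.

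The contractile genes of the myoepithelium, the muscle-like form of the basal layer, did not follow. Of 12 such genes 0 rose and 1 fell (8.33%, against 17.3% of all genes), with a median difference of -0.19. Acta2, smooth muscle actin, read -0.58 and -0.18 in 2225L within a 2208L range of -0.60 to 0.81. Myh11, smooth muscle myosin, read -0.45 and -0.16 within -1.43 to 2.0. The gene that fell was Cald1, which encodes the actin-binding caldesmon, by 1.60. Its call was lost without 2225L replicate 2 (-1.39, limma adjusted p = 0.0788).

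**Figure D1:**
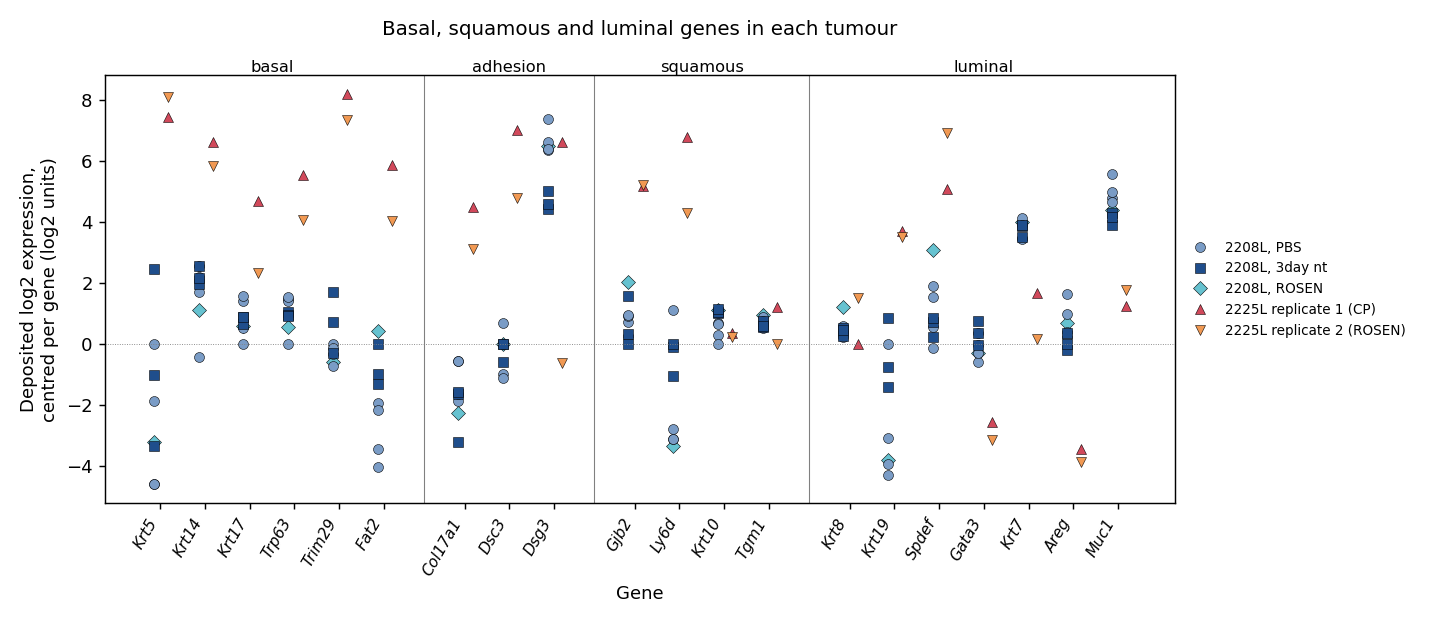
Each symbol is 1 tumour sample, placed by its deposited log2 value (centred per gene, log2 units) for the gene named on the x axis, with 2208L on the left of each gene and 2225L on the right. Both 2225L samples lie above all 2208L samples from Krt5 to Fat2 and at Col17a1, Dsc3, Gjb2 and Ly6d. Of the luminal genes, they lie above all 2208L samples at Krt19 and Spdef, and below all of them at Gata3, Krt7, Areg and Muc1.

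Adhesion genes split by member. Of 10 genes of hemidesmosomes and their laminin, which anchor basal cells to the basement membrane, 1 rose (10%, against 15.6% of all genes), 3 fell (30%, against 17.3%) and 6 did not pass. Of 12 desmosome genes 2 rose (16.7%, near the 15.6% of all genes) and 0 fell, against 17.3% of all genes. Col17a1, the transmembrane collagen of the hemidesmosome, read 4.5 and 3.14 in 2225L and from -3.23 to -0.55 in 2208L (difference 5.48, SE 0.57, limma adjusted p = 1.44e-05). Among the genes that fell were the integrin subunit Itga3, by 1.60, and the cytolinker Dst, by 2.61. Without 2225L replicate 2 the call was lost at Dst (limma adjusted p = 0.0622). Itgb4, the integrin subunit of the hemidesmosome, read 1.06 and 0.00 against 0.39 to 1.73. Dsc3, a desmosomal cadherin of basal layers, read 7.03 and 4.78 against at most 0.69 (difference 6.15), with 4 samples of 2208L at a repeated value. Its companion Dsg3 parted the 2225L samples, at 6.64 in replicate 1 and -0.64 in replicate 2, while 2208L ran from 4.44 to 7.38. Dsp, the desmosomal plaque protein, read 1.54 and 0.00 against 0.69 to 2.19.

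Squamous differentiation was less uniform. The table held 15 of the 70 genes listed, and of these 6 rose (40%, against 15.6% of all genes), 0 fell and 9 did not pass, with a median difference of 0.80. Ly6d, a surface protein of squamous and basal cells, read 6.82 and 4.30 in 2225L and from -3.34 to 1.10 in 2208L (difference 7.11, SE 1.28, limma adjusted p = 0.00097). Gjb2, the gap junction protein connexin 26, read 5.21 and 5.24 against 0.00 to 2.05 (difference 4.37). Calml3, a calmodulin-like protein of epithelium, differed by 1.98. Grhl3, a transcription factor of the epidermal barrier, read 4.39 and 0.87 against 0.00 to 1.57, so its groups overlapped, and the difference of 1.99 became 0.23 without 2225L replicate 1 and 3.75 without replicate 2. Its call was also lost without any 1 of 2208L replicates 2 to 6 (limma adjusted p from 0.0572 to 0.0681). Both 2225L samples lay above all of 2208L at 5 of the 15 genes, not all of them named here. The cornifying-layer genes Krt10, Tgm1 and Lor did not separate the models. Krt10, the suprabasal keratin, read 0.38 and 0.23 within 0.00 to 1.14. The crosslinking enzyme Tgm1 read 1.22 and 0.00 against 0.53 to 0.97, and Lor, which encodes loricrin, read -1.08 and 0.21 against -1.89 to -0.01. The mean over the 15 genes was 2.30 in 2225L replicate 1, 0.822 in replicate 2 and -0.113 to 0.576 in 2208L. The count fell from 6 to 3 without 2225L replicate 1 and to 1 with sample weights, where Ly6d, Gjb2 and Calml3 lost their calls (limma adjusted p from 0.134 to 0.139).

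Luminal genes moved both ways. Of 23 luminal keratin and regulator genes 4 rose (17.4%) and 9 fell (39.1%, against 17.3% of all genes), and the median difference was 0.0044. Krt8 read 0.00 and 1.52 in 2225L and 0.22 to 1.21 in 2208L, and Krt18, its partner, read 0.37 and 1.39 against 0.00 to 1.13, so the general luminal keratins did not separate the models. Krt19, another luminal keratin, read 3.71 and 3.52 against -4.31 to 0.85 (difference 5.67, SE 1.19, limma adjusted p = 0.00282). Spdef, an ETS factor of luminal and secretory cells, read 5.09 and 6.95 against -0.11 to 3.09 (difference 4.92). Elf5, the regulator of alveolar progenitors, read 0.76 and 1.65 against 0.00 to 1.16 and did not pass.

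The luminal genes that fell included the regulators of hormone-responsive cells. Gata3, the transcription factor that maintains luminal identity, read -2.57 and -3.16 in 2225L and from -0.58 to 0.77 in 2208L (difference -2.90, SE 0.33, limma adjusted p = 2.95e-05). Areg, the EGF receptor ligand induced by oestrogen, read -3.45 and -3.86 against -0.19 to 1.64 (difference -4.17). Muc1, the apical mucin, read 1.24 and 1.78 against 3.90 to 5.58 (difference -3.09), and the keratin Krt7 read 1.67 and 0.16 against 3.46 to 4.14 (difference -2.87). Prlr, the prolactin receptor, fell by 2.77, which became -1.59 without 2225L replicate 1, and Stat5a, which acts downstream of it, fell by 1.22. Esr1, the oestrogen receptor, read -3.10 and -2.05 against -2.09 to 1.20, so the groups overlapped, and the call was lost without 2225L replicate 1 (limma adjusted p = 0.178). With sample weights 5 of the 9 decreases were called, and Krt19 and Krt7 lost their calls (limma adjusted p = 0.154 and 0.141).

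Of 12 milk and alveolar genes measured, 1 rose (8.33%, against 15.6% of all genes), 5 fell (41.7%, against 17.3%) and 6 did not pass, with a median difference of -1.88. Wfdc18, a secreted protease inhibitor abundant in the gland, read 1.92 and 1.22 in 2225L and from 3.59 to 5.47 in 2208L (difference -2.87, SE 0.40). Csn3, which encodes kappa casein, read 1.97 and 3.66 against 4.32 to 7.25 (difference -3.29), and its call was lost without 2225L replicate 1 (-2.45, limma adjusted p = 0.0777). Xdh, an enzyme of the milk fat globule, fell by 2.85, which became -1.43 without that replicate. Csn2, the major casein, read 1.52 and 0.48 against 0.88 to 3.59 and did not pass.

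Both models carried epithelial junction genes at similar values. Of 22 such genes 4 rose (18.2%, against 15.6% of all genes) and 2 fell (9.09%, against 17.3%), and the median difference was -0.08. Cdh1, which encodes E-cadherin, read 0.64 and 0.03 in 2225L and 0.01 to 0.56 in 2208L. Epcam read 1.23 and 0.00 against 0.50 to 1.37, and the tight junction protein Cldn7 read 0.86 and 1.20 against 0.53 to 1.86. Grhl2, the transcription factor that maintains these genes, read 1.49 and 1.34 against 0.00 to 1.45. Of these 22 genes the scaffold protein Tjp3 had the largest increase, at 2.54 and 2.49 against 0.00 to 1.16, and the tricellular junction protein Marveld2 fell by 1.20, which became -0.75 without 2225L replicate 2.

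Of 13 mesenchymal genes 0 rose and 8 fell (61.5%, against 17.3% of all genes), with a median difference of -1.23. Cdh2, N-cadherin, read -2.77 and -3.05 in 2225L and from -0.24 to 1.41 in 2208L (difference -3.79, SE 0.36, limma adjusted p = 6.69e-06). Fn1, which encodes fibronectin, fell by 2.95, and the repressor Snai1 by 2.47, from a 2208L median of -0.39 to -2.98 and -2.64. Twist1 read -1.17 and -1.19 against 0.06 to 0.72. Zeb1 (difference -0.71) and Vim, which encodes vimentin (0.47), did not pass. With sample weights 5 of the 8 were called. In bulk tissue, fewer cells of a type and less RNA per cell cannot be told apart, here or for the immune genes below. Of 14 fibroblast genes 1 fell (7.14%, against 17.3% of all genes) and 0 rose, and of 14 endothelial genes 0 were called. The part of stromal cells in these decreases was not tested.

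**Figure D2:**
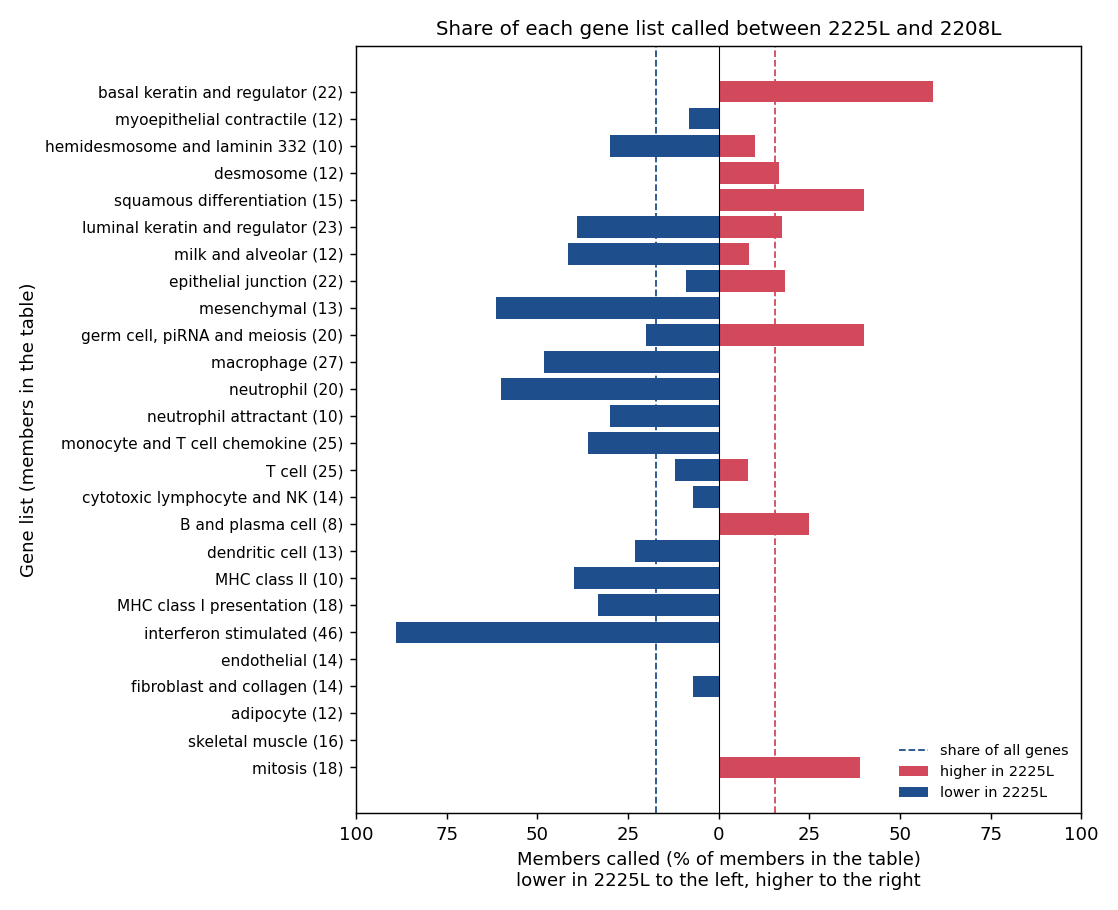
Bars give the percentage of each list's members in the table that were called lower (left, blue) or higher (right, red) in 2225L, with the number of members in brackets and dashed lines at the shares of all genes, 17.3% lower and 15.6% higher. The longest bar to the left is that of the interferon stimulated genes at 89.1% and the longest to the right that of the basal genes at 59.1%, and the lists with fewer than 8 members in the table are left out.

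The largest increase among the ranked kept genes was at a gene of reproductive tissues. Rhox5, an X-linked homeobox gene (chrX:37754608-37808878), read 11.66 and 10.63 in 2225L. In 2208L it ran from -2.59 to 0.31 with a median of -0.90, a difference of 12.14 (SE 0.73, limma adjusted p = 1.12e-07). Its neighbours Rhox2g (7.23 and 2.63) and Rhox2b (0.00 and 8.5) are near-identical copies between which reads may have been split, and all 8 samples of 2208L share the value 0.00 at both, so no fold is given. Rhox2b was called although 2225L replicate 1 lies at that same value, and its difference of 4.25 was 0 without replicate 2 and 8.5 without replicate 1. Only these 3 of 32 listed Rhox genes were in the table.

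Of 6 X-linked cancer-testis genes measured, 3 rose (50%, against 15.6% of all genes) and 1 fell (16.7%, against 17.3%). Xlr4a (chrX:73074343-73082527) read 7.73 and 7.31 in 2225L against -3.51 to 0.41 in 2208L, and Xlr4b read 4.73 and 3.78 against -2.10 to 0.62. Xlr4c differed by 2.84 and lost its call without 2225L replicate 1 (limma adjusted p = 0.122). The Xlr4 genes are close copies, so the share of each is uncertain. The gene that fell was Mageb16, a MAGE family member, at -0.56 and 3.12 against 6.39 to 8.12 (difference -6.00, SE 0.65). The 2208L samples were the high ones there, opposite to Rhox5 and the Xlr4 genes.

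Of 77 listed genes of germ cells, the piRNA pathway and meiosis, 20 were in the table. Of these 8 rose (40%, against 15.6% of all genes), 4 fell (20%, against 17.3%) and 8 did not pass, and the median difference was 0.44. Spo11, the enzyme that makes the DNA breaks of meiosis, read 6.69 and 4.08 in 2225L and from -1.45 to 0.53 in 2208L (difference 5.87, SE 0.67, limma adjusted p = 2.93e-05). Stag3, the meiotic cohesin subunit, read 3.55 and 2.88 against -3.24 to -0.97 (difference 5.18). Syce2, part of the synaptonemal complex, read 1.01 and 1.40 against -0.87 to 0.17. Tex14, which holds open the bridges between germ cells, read 5.38 and 4.40 against -1.43 to 0.70. Piwil2, an Argonaute protein that binds piRNAs, read 4.71 and 3.85 against -1.23 to 0.00, and its difference of 4.86 had an SE of 0.30. Both 2225L samples exceeded every 2208L sample at these 5 genes.

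Pld6, an enzyme of piRNA biogenesis, differed by 3.10 and the germ cell helicase Ddx25 by 2.61. Both calls were lost without 2225L replicate 2 (limma adjusted p = 0.174 and 0.109) and with sample weights, under which 5 of the 8 increases were called. Outside this list, Tcp11, a sperm gene, read 6.39 and 4.03 against -1.47 to 0.49. Tdrd7, a Tudor protein of germ granules, read -2.02 and -1.82 against -0.47 to 0.00 and Terb1, which attaches telomeres to the nuclear envelope in meiosis, read 0.00 and 0.02 against 0.74 to 1.81, and both fell. Of 7 sperm and oocyte genes measured, 1 rose (14.3%, against 15.6% of all genes) and 1 fell (14.3%, against 17.3%), near those shares.

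**Figure D3:**
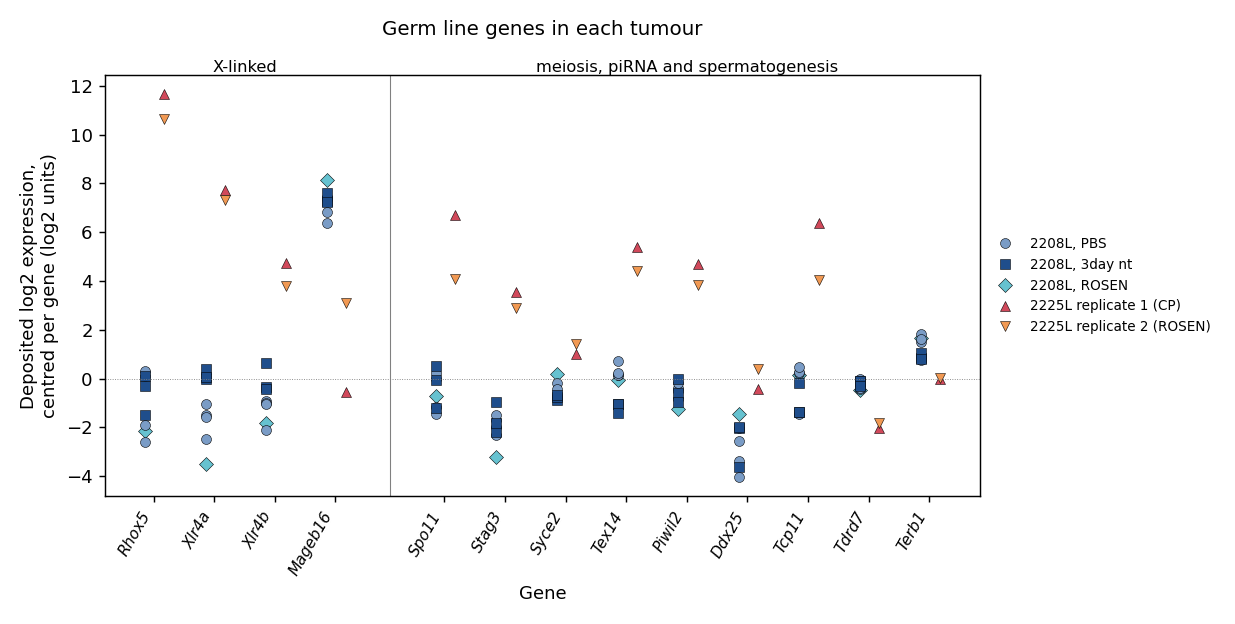
Each symbol is 1 tumour sample, placed by its deposited log2 value (centred per gene, log2 units), with 2208L on the left of each gene and 2225L on the right. Rhox5 reads 11.66 and 10.63 in 2225L, and the 2208L samples stand above 2225L only at Mageb16, Tdrd7 and Terb1.

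The E-box CACGTG is the site bound by MAX with its partners, among them the repressor MGA, which holds germ line genes silent in other cells. Of the 6 higher germ line genes with a promoter in the RefSeq table (250 bases before to 50 after the start, GRCm38.p6), 4 held CACGTG, which reads the same on both strands (66.7%). The share was 38.9% over 18 germ line genes with a promoter and 11.3% over 12100 genes of the table. Of the 4 lower genes, 1 held it. The 250 bases before the start are shown for 3 of the higher genes, to show where it lies, with CACGTG in capitals. It begins 33 bases before the start of Pld6 (chr11:59787658-59787907, minus strand), 170 before Stag3 (chr5:138280259-138280508, plus strand) and 88 before Syce2 (chr8:84872008-84872257, plus strand).
Pld6: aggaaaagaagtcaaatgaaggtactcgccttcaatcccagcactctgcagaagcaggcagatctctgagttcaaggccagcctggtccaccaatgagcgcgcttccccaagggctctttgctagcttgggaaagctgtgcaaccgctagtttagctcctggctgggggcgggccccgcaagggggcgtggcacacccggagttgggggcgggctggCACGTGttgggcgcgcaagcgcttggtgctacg
Stag3: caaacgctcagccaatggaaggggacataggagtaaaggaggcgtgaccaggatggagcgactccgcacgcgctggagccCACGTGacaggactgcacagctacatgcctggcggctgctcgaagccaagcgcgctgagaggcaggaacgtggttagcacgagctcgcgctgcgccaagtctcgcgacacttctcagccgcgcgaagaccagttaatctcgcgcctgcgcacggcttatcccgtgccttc
Syce2: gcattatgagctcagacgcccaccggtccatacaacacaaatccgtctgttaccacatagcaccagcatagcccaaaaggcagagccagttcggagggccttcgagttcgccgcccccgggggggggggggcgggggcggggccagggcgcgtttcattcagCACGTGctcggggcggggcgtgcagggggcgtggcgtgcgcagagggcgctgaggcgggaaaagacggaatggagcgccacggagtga
Pld6 and Syce2 each have a further promoter in the table, without a match. The starts used for the Stag3 and Syce2 sequences shown lie inside the RefSeq gene spans, which begin at chr5:138272514 and chr8:84872111. The further Syce2 promoter is the one that ends where its span begins. A match is a description of the letters in this window.

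Interferon stimulated genes were lower in 2225L almost throughout. Of 46 genes, all of them in the table, 0 rose, 41 fell (89.1%, against 17.3% of all genes) and 5 did not pass, and both 2225L samples lay below all 8 of 2208L at 40. The median difference was -2.34. Rsad2, the antiviral enzyme viperin, read -2.34 and -1.51 in 2225L and from 1.97 to 3.51 in 2208L, with a median of 2.47 (difference -4.46, SE 0.36, limma adjusted p = 1.72e-06). Ifit1, which binds foreign RNA caps, read -3.28 and -1.69 against 0.75 to 1.84 (difference -3.79). Mx1, named for an antiviral GTPase but listed by RefSeq as a transcribed pseudogene, read -2.72 and -1.92 against 0.80 to 1.88 (difference -3.66). Usp18, the protease that removes ISG15, read -1.62 and -0.43 against 1.41 to 2.86, and Cmpk2 fell by 3.58. In each case the 2225L samples were the low ones, and replicate 1 was the lower of them, as it was at 39 of the 46 genes.

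The members that sense RNA and carry the signal also fell. Ifih1, the RNA sensor MDA5, read -2.12 and -1.72 against 0.35 to 1.39 (difference -2.66, SE 0.24). Irf7, the factor that amplifies interferon production, read -1.29 and 0.12 against 1.27 to 2.25, and its call was lost with sample weights (limma adjusted p = 0.0562). Stat2, which carries the type I signal, fell by 1.49, which became -0.97 without 2225L replicate 2. Bst2, Samhd1, Ifi35 and Ifi27l2a were among the 5 that did not pass. Isg15, the ubiquitin-like modifier, read -1.04 and 0.53 against 1.25 to 2.70 and lost its call without 2225L replicate 1 (-1.45, limma adjusted p = 0.066). Leaving out single samples gave 36 to 43 decreases. Cgas and Sting1, the DNA sensor and its adaptor, stand outside the list and were chosen after their values were seen. Cgas read -3.35 and -2.70 against -0.53 to 0.40 (difference -2.99, SE 0.27), and Sting1 read -1.85 and -1.72 against -0.05 to 0.54 (difference -2.10, SE 0.16).

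The element that interferon-activated factors bind has the core GAAA, any pair of bases, then GAAA. Searched on both strands of the same RefSeq windows, it was found in 20 of 33 interferon stimulated genes with a promoter (60.6%) and in 19 of the 30 that fell (63.3%), against 470 of 12100 genes (3.88%). The 250 bases before the start are shown for 3 that fell, because most of the promoters examined in this list hold the element. Capitals mark the match, which on the other strand reads TTTC, a pair of bases, then TTTC. It begins 120 bases before the start of Rsad2 (chr12:26456453-26456702, minus strand) and 104 and 85 bases before that of Ifit1 (chr19:34640639-34640888, plus strand). In Isg15 (chr4:156200819-156201068, minus strand) 3 overlapping matches begin 78, 72 and 66 bases before the start.
Rsad2: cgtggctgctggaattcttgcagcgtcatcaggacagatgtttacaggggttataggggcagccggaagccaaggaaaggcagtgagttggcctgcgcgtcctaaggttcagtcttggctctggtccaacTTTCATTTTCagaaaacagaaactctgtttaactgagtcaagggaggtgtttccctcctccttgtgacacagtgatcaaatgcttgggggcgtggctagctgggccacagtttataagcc
Ifit1: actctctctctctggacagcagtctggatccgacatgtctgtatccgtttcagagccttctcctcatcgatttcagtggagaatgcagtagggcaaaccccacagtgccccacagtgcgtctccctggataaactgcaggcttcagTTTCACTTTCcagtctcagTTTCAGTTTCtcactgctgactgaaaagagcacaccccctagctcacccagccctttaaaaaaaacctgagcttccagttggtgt
Isg15: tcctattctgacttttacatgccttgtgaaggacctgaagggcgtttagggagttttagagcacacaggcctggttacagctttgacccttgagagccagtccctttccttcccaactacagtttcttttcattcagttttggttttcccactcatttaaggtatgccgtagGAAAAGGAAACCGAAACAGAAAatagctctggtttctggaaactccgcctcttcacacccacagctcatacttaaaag

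Neutrophil genes were lower in both 2225L samples. Of 20 genes measured, 0 rose and 12 fell (60%, against 17.3% of all genes), with a median difference of -2.45, and both 2225L samples lay below all of 2208L at 13. Cxcr2, the chemokine receptor that guides neutrophils, read -2.42 and -3.12 in 2225L and from -0.20 to 2.89 in 2208L (difference -4.33, SE 0.72, limma adjusted p = 0.000574). Trem1, an activating receptor of myeloid cells, read -2.95 and -3.49 against -0.05 to 1.27 (difference -3.89). Csf3r, the G-CSF receptor, read -2.29 and -1.77 against -0.53 to 1.11, and Il1b, the inflammatory cytokine, read -1.58 and -1.74 against 0.00 to 1.19. The calprotectin genes S100a8 (difference -3.20) and S100a9 (-3.57) also fell. S100a8 was not called without 2225L replicate 2 (limma adjusted p = 0.0737), and neither was called with sample weights or against the 3day nt samples alone. Lcn2, which epithelium also makes, read 1.44 and 2.48 against 3.80 to 5.10. The mean over the list was -1.43 and -1.21 in 2225L and -0.045 to 1.95 in 2208L, with no overlap. Against the 3day nt samples alone 7 of the 20 fell, and with sample weights 5.

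Of 10 genes for attractants and growth factors of neutrophils 3 fell (30%, against 17.3% of all genes) and 0 rose. Csf3, which encodes G-CSF, read 0.27 and -0.73 in 2225L and from 2.74 to 4.28 in 2208L (difference -3.65, SE 0.57, limma adjusted p = 0.000363). The chemokine Cxcl1 read -0.46 and -2.37 against 0.35 to 2.07 (difference -2.83), which became -1.87 without 2225L replicate 2. Cxcl2 read -1.40 and -1.38 against -1.07 to 1.47 and did not pass (limma adjusted p = 0.165).

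Macrophage genes were lower in part, and here the 2225L samples parted. Of 27 genes measured, 0 rose and 13 fell (48.1%, against 17.3% of all genes), with a median difference of -0.98. Cd14, the endotoxin co-receptor, read -1.36 and 0.34 in 2225L and from 2.48 to 3.55 in 2208L (difference -3.42, SE 0.38, limma adjusted p = 2.28e-05). Arg1, the arginine-degrading enzyme, read -0.36 and -1.61 against 1.43 to 3.31, and the integrin Itgam, which neutrophils share, read -3.05 and -2.24 against -1.33 to 0.30. The defining surface markers moved less. Adgre1, the F4/80 antigen, read -2.79 and -0.75 against -1.15 to 0.17, and its difference of -1.5 became -0.48 without 2225L replicate 1 (limma adjusted p = 0.356) and -2.51 without replicate 2. Csf1r, the CSF1 receptor, differed by -0.98, by -0.35 without replicate 1 (limma adjusted p = 0.428) and by -1.6 without replicate 2. Neither Adgre1 nor Csf1r was called against the PBS or the 3day nt samples alone, or with sample weights. Csf1r was also not called in a fit of the 10 samples or after quantile normalization. Mrc1 read -1.78 and -1.03 within -2.85 to 1.39, and Cd68 read -0.89 and -0.93 against -0.76 to 0.20, and neither Mrc1 nor Cd68 passed. Replicate 1 was the lower 2225L sample at 22 of the 27 genes, and the list mean was -1.74 there, -0.697 in replicate 2 and -1.02 to 0.90 in 2208L. The count of decreases was 4 without replicate 1, 18 without replicate 2, 6 after quantile normalization and 2 with sample weights.

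Chemokines for monocytes and T cells followed the same split. Of 25 genes 0 rose and 9 fell (36%, against 17.3% of all genes). The count was 3 without 2225L replicate 1 and 3 with sample weights. Cxcl12, made by stromal cells, read -4.67 and -3.51 against -1.67 to 0.00, and Cxcl16 read -1.03 and -1.05 against 0.00 to 0.69. Cxcl10, which interferon induces, read -3.52 and -0.34 against 0.28 to 2.06. Its difference of -3.14 became -1.55 without 2225L replicate 1 (limma adjusted p = 0.0538) and -4.73 without replicate 2. Ccl5 differed by -1.80, by 0.06 without replicate 1 and by -3.67 without replicate 2. Its call was also lost without any 1 of the 2208L samples but replicate 5 (limma adjusted p from 0.0523 to 0.0675). Ccl2, the monocyte chemokine, read -1.78 and -0.57 against -1.70 to 1.03 and did not pass.

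**Figure D4:**
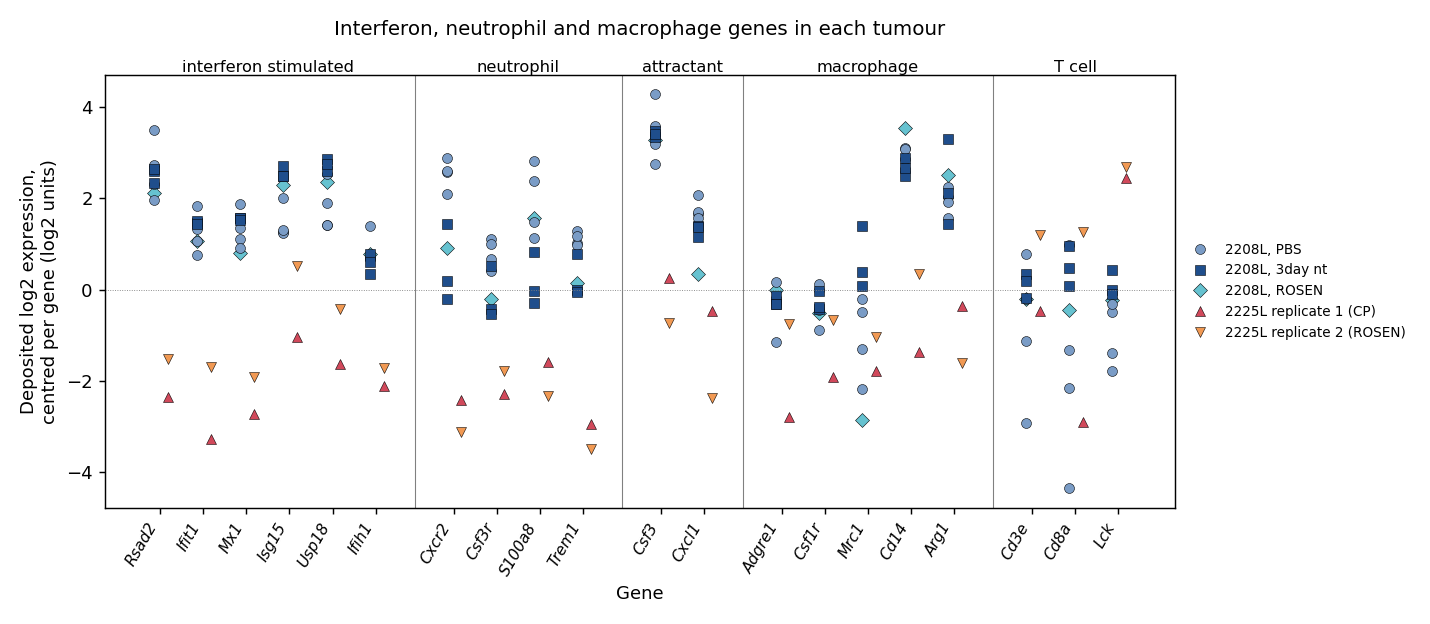
Each symbol is 1 tumour sample, placed by its deposited log2 value (centred per gene, log2 units), with 2208L on the left of each gene and 2225L on the right. Both 2225L samples lie below all 2208L samples at the interferon stimulated and neutrophil genes, Csf3, Cxcl1, Cd14 and Arg1, and above all of them at Lck, while at least 1 of them lies within the 2208L range at Adgre1, Csf1r, Mrc1, Cd3e and Cd8a.

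Few lymphocyte genes were called. Of 25 T cell genes 2 rose (8%) and 3 fell (12%), both below the shares of all genes, and the median difference was -0.11. The 2225L samples parted here too, with a median difference of -1.41 for replicate 1 from the CP samples of 2208L and of 1.16 for replicate 2 from the ROSEN sample. Cd3e, part of the T cell receptor complex, read -0.47 and 1.20 in 2225L against -2.92 to 0.77. Cd8a read -2.90 and 1.25 against -4.34 to 0.97, Cd4 read 0.42 and 0.31 against -1.86 to -0.03, and Foxp3, of regulatory T cells, read 0.16 and 0.11 against -2.30 to 0.43. None of these 4 passed the test (limma adjusted p from 0.101 to 0.961). Lck, the T cell kinase, read 2.44 and 2.70 against -1.77 to 0.42 (difference 3.05, SE 0.45, limma adjusted p = 0.000244), above the range in both samples although Cd3e was not called. Il7r, the interleukin 7 receptor, fell by 3.17 and was not called with sample weights (limma adjusted p = 0.0574). Of 14 cytotoxic and NK genes 1 fell (7.14%, against 17.3% of all genes), although the median difference was -1.06. Of 13 dendritic cell genes 3 fell (23.1%), among them Itgax by 2.48. Of 8 B and plasma cell genes 2 rose (25%, against 15.6% of all genes), the B cell receptor subunits Cd79a by 2.38 and Cd79b by 2.37. The call of Cd79a was lost without 2225L replicate 1 (limma adjusted p = 0.0631) and that of Cd79b without replicate 2 (0.0504).

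Antigen presentation genes were lower mainly in 1 of the 2225L samples. Of 18 genes of MHC class I presentation 6 fell (33.3%, against 17.3% of all genes), but replicate 1 was below replicate 2 at 18 of 18, and 2 fell without replicate 1, against 11 without replicate 2. With sample weights 3 fell, as in a fit of only the 10 samples. H2-K1 read -1.03 and 0.72 against -0.35 to 0.84, and B2m, the shared light chain, read -1.06 and -0.12 against -0.37 to 0.34. H2-D1 read -2.03 and 0.63 against -0.11 to 0.91. Erap1, the peptide-trimming enzyme, read -0.78 and -0.18 against 0.12 to 0.94 and fell by 1.11. Of 10 MHC class II genes 4 fell (40%, against 17.3% of all genes), and replicate 1 was again the lower at 10 of 10. Ciita, the activator of these genes, read -1.53 and -0.39 against 0.60 to 1.92 (difference -2.38, SE 0.38), and Ctss, the protease that frees the binding groove, fell by 1.85. H2-Ab1 read -0.58 and 0.71 against -0.43 to 2.40 and did not pass (limma adjusted p = 0.149).

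Markers of other tissue in the samples were set beside these results. Over 12 adipocyte genes the mean value was -2.18 in 2225L replicate 1 and 2.04 in replicate 2, and -2.91 to 2.97 in 2208L. Over 16 skeletal muscle genes it was 2.16 and -0.922, and -2.68 to 9.91 in 2208L. None of these 28 genes was called, against 32.9% of all genes in either direction. The part of such tissue in the difference between the 2225L samples was not tested. Of 18 mitosis genes 7 rose (38.9%, against 15.6%) and 0 fell, with Aurka by 1.79 and Tpx2, its activator, by 1.54, while Mki67, the proliferation marker, read 0.32 and -0.20 within -0.64 to 0.38. The count was 4 without 2225L replicate 1, 3 without replicate 2, 4 without both 2208L samples high in muscle genes, 4 in a fit of the 10 samples and 2 with sample weights.

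The samples of 2225L correlated at 0.565 (Pearson, across genes, which are not independent replicates), and the median absolute difference between them was 0.679 log2 units over all genes and 0.538 over kept genes. They differed by more than 2 log2 units at 365 kept genes (7.55%). The next 3 genes stand for the widest gaps. Mc1r, the melanocortin receptor, read 9.86 in replicate 1 and 2.61 in replicate 2, and its difference of 6.47 became 2.84 without replicate 1 and 10.09 without replicate 2. Cyp4a10, a fatty acid hydroxylase, read 1.27 and 11.24, where 7 of the 8 samples of 2208L shared a value, and its difference of 6.21 became 11.19 and 1.22 in the same order. Bche, a cholinesterase, read -6.10 and 1.86, against 2.01 to 3.50 in 2208L, and its difference of -4.86 became -0.88 without replicate 1 (limma adjusted p = 0.257) and -8.84 without replicate 2. The prefix differs within the pair and was otherwise shared with 7 (CP) and 1 (ROSEN) of the 2208L samples. With prefix as a covariate 43 interferon, 15 macrophage and 7 MHC class I genes fell, more than without it. There were also more increases among basal (14) and germ cell (9) genes. Fewer were called among luminal genes (7 fell), mesenchymal genes (6 fell), chemokines (8 fell) and mitosis genes (5 rose). Squamous and neutrophil counts did not change.

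The share of called genes differed from chromosome to chromosome. By RefSeq symbol 16181 genes (93.7%) were placed on GRCm38.p6, the assembly that mm10 names. Of these 15.9% were higher and 17.7% lower. On chromosome 18, 39.0% were lower and 5.63% higher, and on chromosome 13, 37.9% were lower and 5.45% higher. Chromosome 15, which holds Krt5 and Ly6d, had the highest share of increases, 29.1%, followed by chromosomes 17 (24.8%), 14 (23.5%) and 19 (23.4%). Among 16000 sliding windows of 10 neighbouring genes, those with a median difference of at least 2.5 log2 units joined into 6 lower and 3 higher runs. The windows and runs were chosen after the values were seen and are a description. The lower runs on chromosomes 11 and 19 hold interferon genes of the Irgm1, Tgtp and Ifit clusters. One higher run on chromosome X holds the Xlr4 genes, and another, of 13 genes with 10 called higher, holds the Bex and Tceal genes (chrX:135579555-136709873). Bex1 read 7.6 and 9.51 in 2225L and from -1.5 to 4.82 in 2208L, and Bex2 read 8.17 and 6.76 against -0.68 to 0.69. Tceal1 differed by 3.38, and its call was lost without 2225L replicate 2 (limma adjusted p = 0.123).

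The run with the most genes lay on chromosome 6. Of its 33 genes, from Ppp1r3a to 6530409C15Rik (chr6:14713822-28398033), 22 fell (66.7%, against 17.7% of placed genes), 0 rose and 11 did not pass. The median difference was -3.52. The ends of the run come from joining windows, and most decreases lay from Gm15473 to Tmem229a (7.9 Mb), where 21 of 25 genes fell (84.0%). Of the 40 genes beside that stretch, 20 on each side, 5 fell (12.5%). Met, the hepatocyte growth factor receptor, read -2.25 and -0.77 in 2225L and from 3.88 to 5.05 in 2208L (difference -6.06, SE 0.39, limma adjusted p = 2.06e-07). Tes, its neighbour, read -1.60 and -1.66 against 3.68 to 5.06, and Capza2, a subunit of the actin capping protein, read -0.93 and -0.17 against 4.23 to 4.89. Ing3, a chromatin factor, read 0.01 and 0.04 against 3.18 to 3.78, and Wasl, an actin regulator, read -1.04 and -1.06 against 2.82 to 4.28. The median value of the run was 3.54 in 2208L and -0.848 and -0.252 in the 2225L samples. The 2151R samples shared the high values at part of it. Their mean was 4.58 at Met, 4.71 at Tes and 4.05 at Capza2, close to the 2208L medians of 4.59, 4.62 and 4.73. At Ing3 and Wasl the 2151R mean was -0.01 and 0.20, against 2208L medians of 3.54 and 3.86. Cav1, inside it, read -0.06 and -2.31 against -1.08 to -0.10 and did not pass.

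In a shorter run on chromosome 12 the 2225L samples held the values far from 0. Of its 14 genes, from Rab10os to Ptrhd1 (chr12:3235791-4240123), 11 fell (78.6%, against 17.7% of placed genes), 0 rose and 3 did not pass. The median difference was -3.77. The median value was -3.35 and -3.41 in the 2225L samples, 0.602 in 2208L and -0.154 in 2151R. Dnmt3a, which methylates DNA de novo, read -3.58 and -3.28 in 2225L and from 0.97 to 1.82 in 2208L (difference -4.88, SE 0.28, limma adjusted p = 6.88e-08). Rab10, a GTPase of membrane traffic, read -3.65 and -3.74 against 0.37 to 0.89, and Asxl2, a chromatin regulator, read -4.18 and -4.71 against -0.14 to 1.27. Dtnb, dystrobrevin beta, read -4.60 and -4.69 against 1.64 to 2.73, and the kinesin Kif3c fell by 5.40. The 2225L samples lay close together at these genes, and none overlapped with 2208L. Efr3b, among the genes that did not pass, read 0.02 and -0.75 within -1.11 to 0.97. Unlike on chromosome 6, decreases went on past the run, with smaller differences. Of the 20 genes after Dnajc27, the first of which still belong to the run, 10 fell and 2 rose, with a median difference of -0.917. Of the 30 genes that follow, from Rhob to Atp6v1c2, 16 fell (53.3%) and 1 rose, with a median difference of -1.12. The run is therefore the strongest part of a wider lower region.

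**Figure D5:**
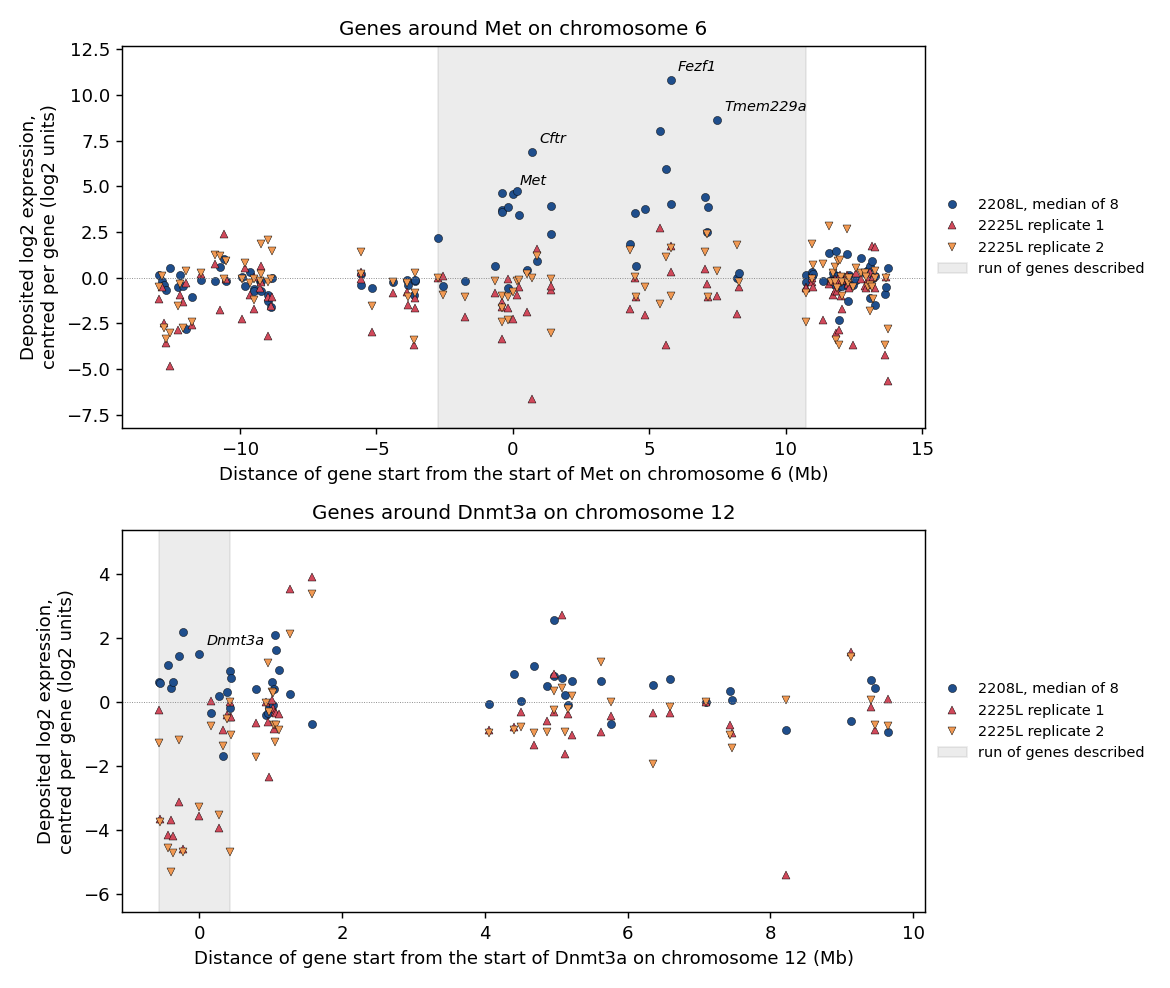
Each symbol is 1 gene, placed by the distance of its start from that of Met (upper panel) or Dnmt3a (lower panel) in Mb and by its deposited log2 value (centred per gene, log2 units) in each 2225L sample or as the median of 8 samples of 2208L. In the shaded run of 33 genes that holds Met the 2208L values stand high (median 3.54), and in that of 14 genes that holds Dnmt3a the 2225L samples stand low (medians -3.35 and -3.41).

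The other DNA methyltransferases, which lie elsewhere and were chosen after their values were seen, differed in another way. Dnmt3b, the second de novo enzyme, read 3.03 and 3.08 in 2225L and from -0.49 to 0.39 in 2208L (difference 2.92, SE 0.21, limma adjusted p = 6.16e-07). Dnmt1, the maintenance enzyme, read -0.03 and -0.17 within -0.41 to 0.53. Between these models 1 methyltransferase gene was lower, 1 higher and 1 not called, and the relation of these values to the germ line genes was not tested.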

How the data were processed

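Bulk mRNA sequencing (oligo-dT TruSeq libraries of total RNA, per the labels' protocols) was deposited as 1 table of log2 values for 17271 genes, which the authors centred per gene, on a reference that is not given in the sources used here. Per the submitters' processing notes, STAR, Salmon and the mm10 build were used, in roles that are not stated. Depth is unknown, so no counting interval is given. The values were analysed as deposited, with no filter. Model was taken from the sample titles, and the study's design text writes 2225L with a digit fewer, so the titles were followed.

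limma 3.58.1 in R 4.3.3 was fitted to all 15 samples with a mean per model, and p-values were adjusted by Benjamini-Hochberg over 17271 genes. A gene was called under 0.05, and kept if both 2225L samples also lay outside the range of 2208L. SE is the standard error of the difference, 2225L minus 2208L. The code was tested on simulated data. Tables were summarised with pandas 2.3.3 in python 3.11.15. Alternatives used only the 10 samples, only PBS or 3day nt samples of 2208L, the title prefix as a covariate, median centring, quantile normalization, a variance trend, sample weights, no genes with repeated values, no 2208L samples high in muscle genes, and each sample left out. Genes named are the 10 largest in each direction among kept genes, leaving out predicted genes and genes where all samples of a model share a value. Also named are the 4 defining genes and up to 6 largest called members of each list. Up to 5 in each direction are named for the 2225L samples apart, and Trp53. Others named were chosen after their values were seen. Positions and promoters are RefSeq's (GRCm38.p6). The comparison, the gene lists and the motifs were chosen with earlier results of these data known.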

Additional observations from a re-analysis of the deposited data

Results flagged for a closer look

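Among 203 groups of 8 samples of 2208L that were examined, 12 held 1 sample whose gap to the nearest other exceeded Dixon's critical value, and chance gives about 1 in 20, or 10.15. The 2208L replicate named first stood apart in each case. Replicate 1, the ROSEN sample, read 1.2059 at Krt8, 1.1281 at Krt18 and 8.6968 at Igf2bp1, where the other 2208L samples reached at most 0.5936, at most 0.3041 and at least 9.357. Replicate 5 read -1.784 at Bcas1, -2.5316 at Pld6, -1.1458 at Adgre1 and -0.487 at Dnmt3b, below the other samples. Replicate 6 read 1.0029 at Brinp2 and 1.0345 at Ccl2, and replicate 7 read 2.7659 at Irx4 and 0.4083 at Cyp4a10, where the other samples share a value. Replicate 2 read 1.3943 at Ifih1, above the other samples and so farther from 2225L.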

How the results depend on the processing

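Of 131 called genes named in the text or tested beside them, 131 kept their call and direction with median centring, 129 with prefix as a covariate, 128 with quantile normalization, 128 with a variance trend, 126 in a fit of 10 samples and 101 with sample weights. Without 2225L replicate 1, 120 kept it, and without replicate 2, 122. The direction was not kept at Rhox2b, with 0 without 2225L replicate 2 and 8.50082 without replicate 1, and at Ccl5, with 0.0636 without replicate 1 and -3.67 without replicate 2. The cause was not tested.

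Sample weights gave 958 genes higher and 1200 lower, and list counts of 1 for squamous, 5 for luminal lower, 5 for mesenchymal, 5 for germ cell, 5 for neutrophil, 2 for macrophage, 3 for chemokine, 3 for MHC class I and 2 for mitosis genes. Fewer samples make a narrower range: 4559 genes lay above and 4732 below it with PBS samples only, and 4211 and 4848 with 3day nt samples only. Neutrophil decreases were 7 with 3day nt samples only, macrophage decreases 6 with quantile normalization, MHC class I decreases 3 in the fit of 10 samples, and mitosis increases 4 in that fit and 4 without both 2208L samples high in muscle genes. Leaving out single samples gave 1931 to 2831 genes higher, 2477 to 3217 lower, 2731 to 5289 above and 2766 to 4846 below the range. For the lists it gave 13 to 14 basal, 3 to 7 squamous, 8 to 9 luminal lower, 6 to 8 mesenchymal, 6 to 8 germ cell, 36 to 43 interferon, 9 to 13 neutrophil, 4 to 18 macrophage, 3 to 10 chemokine, 2 to 11 MHC class I and 3 to 8 mitosis genes.

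No paired analysis was possible because the numbers in the titles are sample and library codes that the models do not share, so replicate numbers follow accession order and pair nothing; the title prefix was used as a covariate instead. With 2 samples of 2225L, each from another title prefix, the spread within that model rests mainly on the other groups, and depth and the centring reference are unknown.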
